A study of Mus musculus with 6 samples.

Results

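The arms of the mouse hairpins Mir210 and Mir128 were followed in renal tubular epithelial cells. These are miR-210-3p, miR-210-5p, miR-128-3p and miR-128-1-5p, the 4 mature miRNAs of these hairpins that the authors placed in their tables of up- and down-regulated miRNAs. Those tables hold 55 distinct sequences in 59 entries, and the 4 miRNAs fill 5 of the entries because miR-128-3p is entered once for each of its hairpins. The full raw table holds 1272 distinct sequences, and the 4 miRNAs are described against it. They were selected on the authors' fold and p in these same libraries, so their levels in the groups are given as a description and were not tested between groups.

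Mouse renal tubular epithelial cells (mRTECs, a commercial culture with the strain given as C57BL/6) were kept for 48 h with TGF-β1, the main profibrotic cytokine of the kidney. In the co-cultured group the TGF-β1-treated mRTECs then shared medium for 24 h with bone marrow mesenchymal stem cells (BM-MSCs) across the porous membrane of a Transwell, without direct contact. The control group had the same TGF-β1 treatment, and received medium without BM-MSCs in place of the stem cells. In both groups the medium was changed after the 48 h to one without added TGF-β1. No library of cells never given TGF-β1 was compared. Small RNA was sequenced in 3 libraries per group, and the sources used here do not say whether these came from separate cultures, so that error terms and p-values measure the spread between libraries, which may be technical. Group names in the deposited tables run against the sample labels. The column of means headed MRTEC+MSC was computed from the control-labelled libraries and the one headed MRTEC+TGF-beta from the co-cultured-labelled ones, in 1089 of 1089 entries of the comparison table (library mean plus 1, tolerance 0.01). By the labels, miR-146a-5p was lower in co-cultured libraries (log2 fold change of co-cultured over control -4.75, SE 0.31). The authors reported it as up-regulated in mRTECs by BM-MSCs, in sequencing and in RT-qPCR. Which naming holds was not settled here. Groups are named below by the sample labels, and every direction would turn round under the tables' naming.

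A miRNA hairpin is cut by Drosha and Dicer into a duplex whose strands are called the 5p and the 3p arm. Argonaute usually keeps one arm and the other is degraded, so the arms of one hairpin share their transcription but not their stability. miR-210 is the best known miRNA induced by the hypoxia factor HIF-1, and miR-128 is abundant in neurons. A miRNA recognises its targets mainly through bases 2 to 8, the seed.

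The 4 mature sequences are shown because the seed decides which other miRNAs could share their targets. They were taken from RefSeq (GRCm38.p6), are the same letters as in the deposited table, and carry the seed in capitals.
miR-210-3p: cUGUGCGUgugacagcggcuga
miR-210-5p: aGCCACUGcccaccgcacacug
miR-128-3p: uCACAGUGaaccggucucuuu
miR-128-1-5p: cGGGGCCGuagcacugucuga
The 4 seeds differ from one another. miR-210-5p and miR-128-1-5p shared theirs with no other sequence of the raw table.

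The hairpins are shown because each places both arms in one transcript, with the RefSeq arms in capitals.
Mir210: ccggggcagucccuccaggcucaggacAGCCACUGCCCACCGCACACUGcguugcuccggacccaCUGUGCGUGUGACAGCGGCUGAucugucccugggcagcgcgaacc
Mir128-1: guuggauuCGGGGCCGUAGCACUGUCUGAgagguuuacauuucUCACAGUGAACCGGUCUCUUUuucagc
Mir128-2: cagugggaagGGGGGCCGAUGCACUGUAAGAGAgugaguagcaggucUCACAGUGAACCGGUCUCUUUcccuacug
Mir210 lies at chr7:141221384-141221493 on the minus strand of GRCm38 and overlaps no other gene in GENCODE M21. Its nearest annotated gene is Rassf7, 2725 bases away. Mir128-1 lies at chr1:128202361-128202430 on the plus strand, in an intron of R3hdm1. Mir128-2 lies at chr9:112118636-112118711 on the minus strand, in an intron of Arpp21, a gene known for its expression in neurons. Both host genes run on the strand of their hairpin. The 3p arm of Mir128-1 and that of Mir128-2 are the same 21 bases, so tags of miR-128-3p cannot be assigned to one hairpin. The 5p arms differ but share the 7 bases of their seed, GGGGCCG, and a later run, GCACUGU. No other sequence of the raw table has the seed of miR-128-1-5p, so miR-128-2-5p has no row there under its RefSeq sequence. It was not analysed here.

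The libraries held 3740503 to 4038815 tags in the co-cultured group and 2873703 to 3029205 tags in the control group, so depth moved with the group. The number of sequences with a listed count was 493 to 720 in co-cultured libraries and 439 to 623 in control libraries. No library lists a count under 2, so a blank cell can be no tag or a count that was not listed. Blanks were read as 0 and are named as blanks wherever they touch a value. Of 542 miRNAs with a mean count of at least 5, 62 (11.4%) passed edgeR's quasi-likelihood test at an adjusted p of 0.05, a count that ran from 37 to 249 when single libraries were left out. Higher in the co-cultured libraries were 21 (3.87%), and lower were 41 (7.56%). With total-count scaling in place of TMM (edgeR's trimmed mean of M-values) the same test called 37 higher and 28 lower. That scaling moved the median log2 fold change over all tested miRNAs to 0.27, against 0.08 with TMM.

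Both arms of Mir210 were lower in the co-cultured libraries. miR-210-3p, the arm usually meant by the name miR-210, had 34, 45 and 23 tags in co-cultured libraries 1 to 3, against 88, 119 and 115 tags in control libraries 1 to 3. As TMM-scaled counts per 1000000 tags (CPM) these were 8.71, 10.2 and 5.51 in co-cultured libraries, against 30.1, 43.7 and 43.2 in control libraries. The groups did not overlap, and the lowest control library stood 2.94 times above the highest co-cultured one. The group means were 8.14 ± 2.40 CPM in co-cultured libraries and 39.0 ± 7.75 CPM in control libraries (SD, n = 3 each), a 4.79-fold lower level with co-culture. Among the sequences of its library, miR-210-3p ranked 206 to 270 in co-cultured libraries and 136 to 161 in control libraries.

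miR-210-5p, the less abundant arm, had 5 and 8 tags in co-cultured libraries 1 and 3 and a blank in co-cultured library 2, against 41, 31 and 23 tags in control libraries 1 to 3. In CPM it averaged 1.07 ± 0.98 in co-cultured libraries and 11.3 ± 2.68 in control libraries (SD, n = 3 each). The lowest control library was 4.51 times the highest co-cultured one, so the groups did not overlap. The log2 fold change fitted by edgeR was -2.25 (SE 0.32) for miR-210-3p and -3.38 (SE 1.02) for miR-210-5p. Without co-cultured library 2, where the 5p arm is blank, the 5p value was -2.79. The 2 arms thus went the same way, and the difference between their fitted values was about the size of the larger SE. That SE does not use the pairing of the arms within libraries, and their ratio per library is given below.

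The arms of Mir128 went opposite ways. miR-128-3p had 1213, 1460 and 1031 tags in co-cultured libraries 1 to 3, against 463, 394 and 311 tags in control libraries 1 to 3. In CPM these were 311, 331 and 247 in co-cultured libraries, against 158, 145 and 117 in control libraries. The lowest co-cultured library stood 1.56 times above the highest control one. The means were 296 ± 44.0 CPM in co-cultured libraries and 140 ± 21.0 CPM in control libraries (SD, n = 3 each), and the fitted log2 fold change was 1.08 (SE 0.15). It was the most abundant of the 4, at rank 62 to 71 in co-cultured libraries and 87 to 96 in control libraries.

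miR-128-1-5p, the other arm of Mir128-1, had 5 and 6 tags in co-cultured libraries 1 and 2 and a blank in co-cultured library 3, against 14, 29 and 19 tags in control libraries 1 to 3. It averaged 0.88 ± 0.76 CPM in co-cultured libraries and 7.52 ± 2.95 CPM in control libraries (SD, n = 3 each). The groups did not overlap, the lowest control library being 3.51 times the highest co-cultured one. The fitted log2 fold change was -3.04 (SE 1.24), and without co-cultured library 3 it was -2.48. So from Mir128-1 the 3p arm was higher and the 5p arm lower in co-cultured libraries, although part or all of the 3p arm can come from Mir128-2. All 4 miRNAs had groups that did not overlap, which the way they were chosen favours. Over the 542 tested miRNAs the share without overlap was 28.4%.

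**Figure D1:**
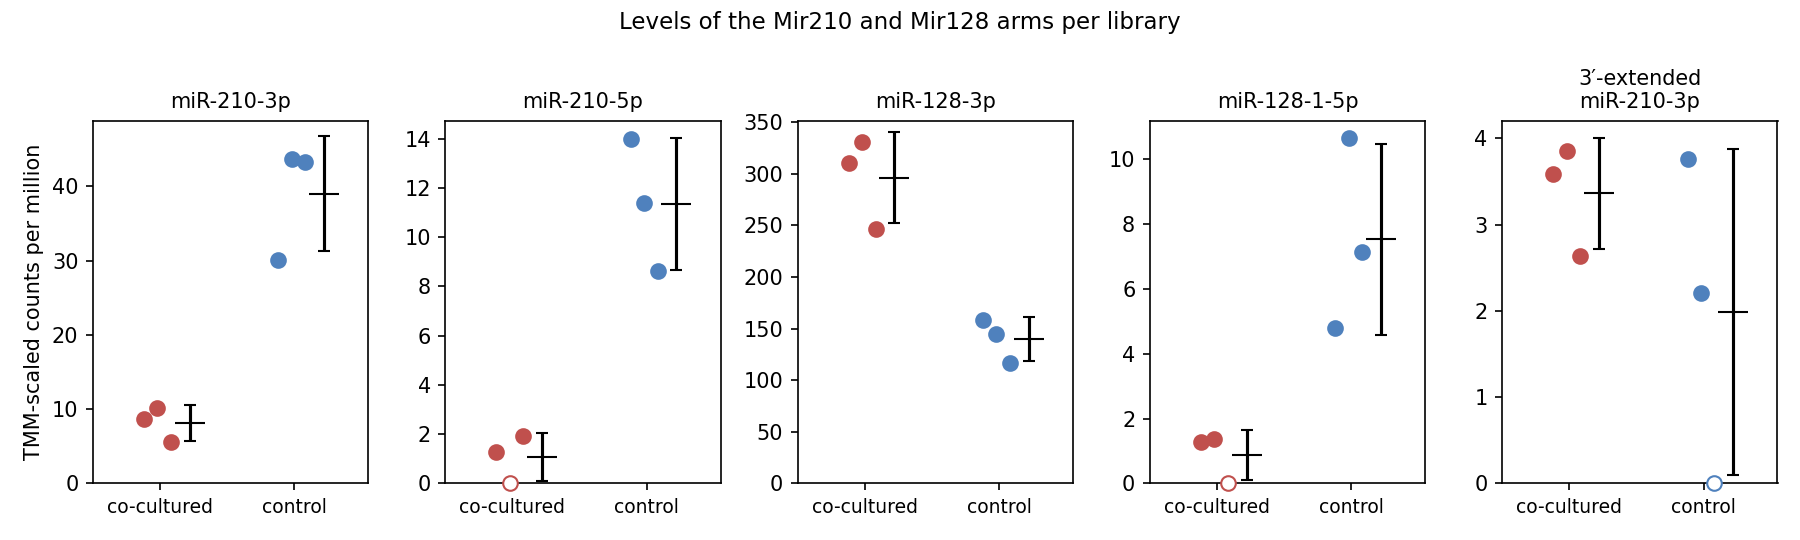
Level of each arm, and of the 3′-extended form of miR-210-3p, in TMM-scaled CPM on separate linear axes. Points are libraries, open points are blanks read as 0, and bars give the mean ± SD of 3 libraries. miR-210-3p, miR-210-5p and miR-128-1-5p are lower in all 3 co-cultured libraries, miR-128-3p is higher in all 3, and the extended form overlaps between the groups.

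Arm use was then read within each library, where scaling cancels. Depth does not cancel fully where an arm is blank or low, because 1 was added to each count for the log2 ratio. The 3p arm of Mir210 outnumbered the 5p arm in 6 of 6 libraries, with a mean log2 ratio (pseudocount 1) of 2.46 ± 1.60 (SD, n = 6). For Mir128-1 the 3p arm was higher in 6 of 6 libraries as well, with a mean of 6.34 ± 2.51. These counts are those on which the arms were selected, so the ratio is a description with no test.

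The ratio of the arms of Mir210 overlapped between the groups. It was 6.80 and 2.88 3p tags per 5p tag in co-cultured libraries 1 and 3, with no ratio in library 2, against 2.15, 3.84 and 5.0 in control libraries 1 to 3. The 3p share was 87.2% (95% exact binomial interval 72.6 to 95.7) and 74.2% (55.4 to 88.1) in co-cultured libraries 1 and 3. In control libraries 1 to 3 it was 68.2% (59.4 to 76.1), 79.3% (72.0 to 85.5) and 83.3% (76.0 to 89.1). These intervals cover counting error only, and none is given where an arm is blank. The summed share was 88.7% of 115 tags in co-cultured libraries and 77.2% of 417 tags in control libraries. On the log2 scale the ratio was 3.16 ± 2.12 in co-cultured libraries and 1.75 ± 0.61 in control libraries (SD, n = 3 each). The difference of 1.41 was smaller than the SD among co-cultured libraries and was 0.23 without co-cultured library 2.

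The ratio of miR-128-3p to miR-128-1-5p did not overlap. It was 243 in both co-cultured libraries 1 and 2, with no ratio in library 3, against 33.1, 13.6 and 16.4 in control libraries 1 to 3. The 3p share was 99.6% in both co-cultured libraries 1 and 2, with intervals of 99.04 to 99.87% and 99.11 to 99.85%. In control libraries 1 to 3 it was 97.1% (95.1 to 98.4), 93.1% (90.3 to 95.4) and 94.2% (91.2 to 96.5). The log2 ratio averaged 8.46 ± 1.34 in co-cultured libraries and 4.21 ± 0.65 in control libraries (SD, n = 3 each), a difference of 4.25, or 3.47 without co-cultured library 3. The 2 counts behind that ratio are 1031 to 1460 and 5 to 6 tags in co-cultured libraries, so its size rests on few 5p tags.

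**Figure D2:**
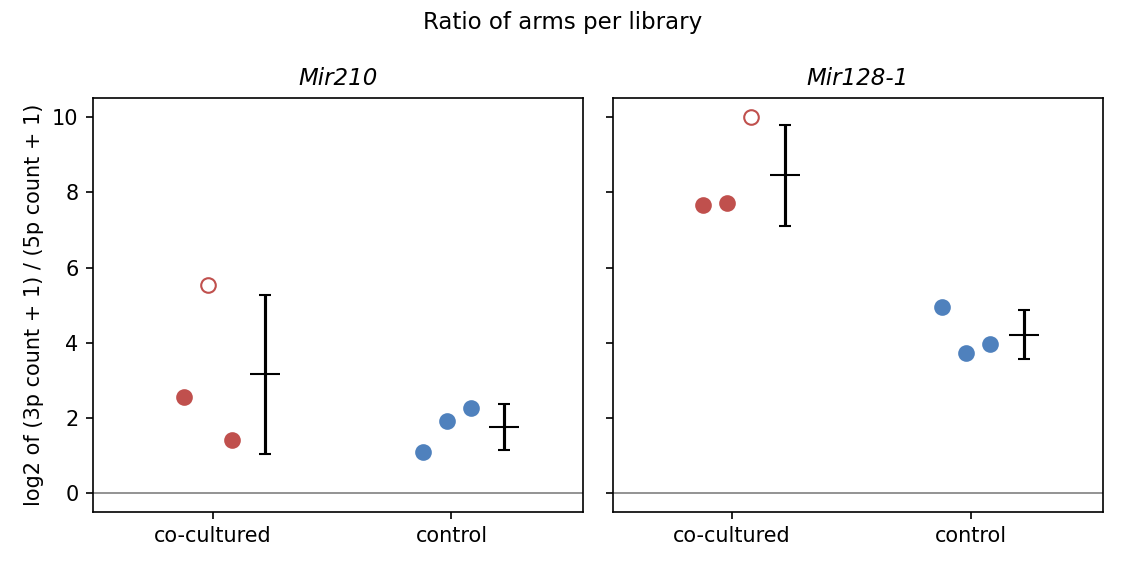
Log2 ratio of the 3p to the 5p count (each plus 1) in each library for Mir210 and Mir128-1, whose 3p tags include those of Mir128-2. Open points are libraries with a blank 5p arm and bars give the mean ± SD of 3 libraries. Co-cultured libraries lie above control libraries for Mir128-1 and overlap them for Mir210.

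Over the 97 hairpins with a mean count of at least 5 in both arms, the log2 ratio did not overlap between the groups in 42 (43.3%), so lack of overlap for Mir128-1 is near the background. Its difference of 4.25 was exceeded by 3 of the 95 other hairpins, and that of Mir210 by 28. Blanks move with such differences. In the 36 hairpins with a blank in either arm, which include Mir210 and Mir128-1, the median absolute difference was 1.73, against 0.67 in the 61 without one, where the largest was 2.28. The fitted log2 fold changes of the arms had opposite signs in 49 of the 95 other hairpins (51.6%), the same sign in 46, of which 27 had both arms higher and 19 both lower with co-culture. Arms of opposite sign, as in Mir128-1, were therefore about as frequent as arms of the same sign, as in Mir210. Both arms passed the threshold in 3 of the 95, and in 1 of these 3 they moved in opposite directions.

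**Figure D3:**
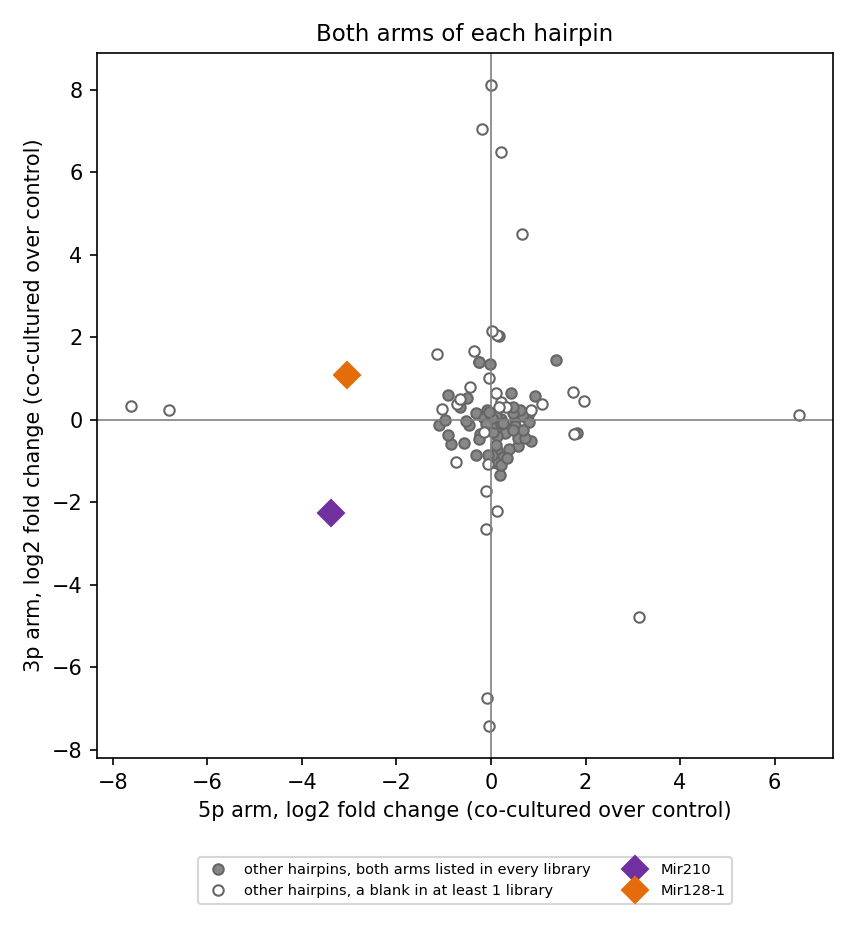
Fitted log2 fold change (co-cultured over control) of the 3p arm against that of the 5p arm for 97 hairpins. Filled grey points have both arms listed in every library, open points have a blank, and diamonds mark Mir210 (both arms below 0) and Mir128-1 (3p above 0 at 1.08, 5p below 0 at -3.04).

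A further row of the raw table, entered by the authors as a new miRNA on chromosome 7, is miR-210-3p with one more base at its 3′ end. It is shown with the added base in capitals, and that base is the next one of the Mir210 hairpin.
3′-extended miR-210-3p: cugugcgugugacagcggcugaU
Its seed is that of miR-210-3p, and it was in neither of the tables of changed miRNAs. It had 14, 17 and 11 tags in co-cultured libraries 1 to 3, against 11 and 6 tags in control libraries 1 and 2 and a blank in control library 3. The means were 3.36 ± 0.64 CPM in co-cultured libraries and 1.99 ± 1.89 CPM in control libraries (SD, n = 3 each), with overlapping groups. Its log2 fold change was 0.74 (SE 1.57), with an adjusted p of 0.757 in edgeR's quasi-likelihood test. The lower level of miR-210-3p was thus not seen in its longer form. At 17 tags or fewer per library the SE of that form is wide, so the size of its change is poorly fixed. Summed, the 2 forms averaged 11.5 ± 3.04 CPM in co-cultured libraries and 41.0 ± 6.36 CPM in control libraries (SD, n = 3 each), which is 3.56-fold lower with co-culture.

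The longer form made up 29.2% (95% exact binomial interval 17.0 to 44.1), 27.4% (16.9 to 40.2) and 32.4% (17.4 to 50.5) of both forms in co-cultured libraries 1 to 3. In control libraries 1 and 2 it made up 11.1% (5.68 to 19.0) and 4.80% (1.78 to 10.2), and it was blank in control library 3, where miR-210-3p had 115 tags. The groups did not overlap. This share shares its denominator with the level that chose miR-210-3p and was not tested. Among 6 other miRNAs with an entry longer by 1 or 2 bases at the 3′ end at a mean count of at least 5, a comparison made after the values were seen, the group means differed by -5.93 to 12.9 percentage points, against 24.3 for miR-210-3p. The highest of these, for miR-215-5p, lacks a library with tags of either form. Of the 5 with a share in every library, 3 had groups that did not overlap.

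**Figure D4:**
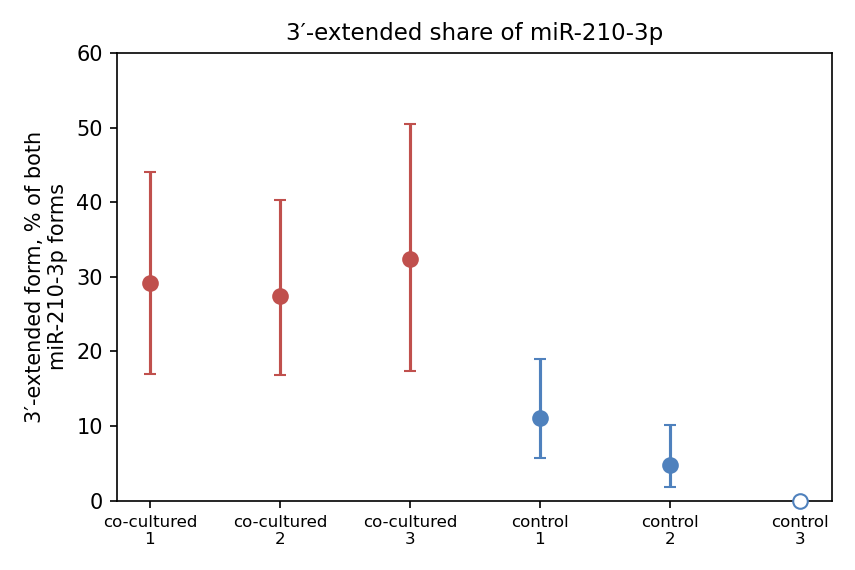
Share of the 3′-extended form among all tags of miR-210-3p in each library, in percent, with 95% exact binomial intervals. The open point is a blank read as 0, without an interval. The 3 co-cultured libraries lie between 27.4% and 32.4%, above the control libraries at 11.1% or less.

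miR-128-3p shares seed letters with other miRNAs, which are shown with the longest run they have in common with it in capitals.
miR-27a-3p: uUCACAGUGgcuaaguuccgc
miR-27b-3p: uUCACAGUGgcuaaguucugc
miR-6539: gCACAGUGAugaacucugagggcu
In miR-27a-3p and miR-27b-3p the 8 bases UCACAGUG stand at positions 2 to 9, shifted by 1 from positions 1 to 8 of miR-128-3p. miR-6539 has the seed CACAGUG in register. The letters of miR-27a-3p and miR-27b-3p match RefSeq, while those of miR-6539 come from the deposited table.

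miR-27b-3p, known from other work as a regulator of lipid metabolism and of angiogenesis, was among the most abundant miRNAs of every library. It had 17333, 16382 and 17134 CPM in co-cultured libraries 1 to 3, against 11209, 10918 and 9721 CPM in control libraries 1 to 3. The groups did not overlap, and it rose with co-culture by 0.67 on the log2 scale (SE 0.07, adjusted p = 1.42e-04 in edgeR's quasi-likelihood test), higher in 3 of 3 libraries. Its paralog miR-27a-3p had 186, 143 and 215 CPM in co-cultured libraries and 167, 195 and 189 CPM in control libraries, and did not pass the test (log2 fold change -0.02, SE 0.15, adjusted p = 0.926). miR-6539 averaged 20.1 ± 2.31 CPM in co-cultured libraries and 15.6 ± 4.45 CPM in control libraries (SD, n = 3 each), and did not pass either (0.37, SE 0.34, adjusted p = 0.412). miR-27b-3p was 57.2 times as abundant as miR-128-3p in co-cultured libraries and 75.9 times in control libraries, on the scale of mean CPM.

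The miRNAs closest to miR-210-3p in their levels across the 6 libraries, on log2(CPM + 1) among 250 others with a mean count of at least 20, were miR-185-3p (Pearson r = 0.99), miR-181b-5p (0.99), miR-1843b-5p (0.98), miR-15b-3p (0.98) and an entry without a miRBase name on chromosome 1 (0.97). miR-185-3p had 43.3, 48.5 and 41.4 CPM in co-cultured libraries, against 63.9, 76.4 and 78.9 CPM in control libraries. That unnamed entry was blank in every co-cultured library and had 148, 267 and 347 CPM in control libraries. Closest to miR-128-3p were miR-30a-5p (r = 1.00), miR-30d-5p (0.99), miR-155-5p (0.99), miR-362-3p (0.98) and an unnamed entry on chromosome 19 (0.97). miR-30a-5p, an abundant miRNA of renal epithelium, had 3617, 3800 and 3097 CPM in co-cultured libraries, against 2380, 2339 and 2131 CPM in control libraries. In each of these the points fall into the same groups of libraries, so the correlations mostly restate the group difference and carry no test.

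Of 23 miRNAs listed as responsive to hypoxia, with miR-210 left out, 20 had a row, 19 could be tested, and 2 rose and 2 fell with co-culture, beside 3.87% called higher and 7.56% called lower over all miRNAs tested. The median log2 fold change of the 19 was 0.24, against 0.08 over all miRNAs tested. miR-155-5p, an inflammation-responsive miRNA, rose to 357 ± 24.5 CPM in co-cultured libraries, against 203 ± 29.5 CPM in control libraries (SD, n = 3 each; 0.81, SE 0.12, adjusted p = 0.00134 in edgeR's test). The other that rose was miR-27b-3p. miR-181b-5p fell by 0.91 on the log2 scale, at 36.5 ± 2.19 CPM in co-cultured libraries and 68.9 ± 1.07 CPM in control libraries (SE 0.17, adjusted p = 0.00446 in edgeR's test, n = 3 each). miR-21a-3p, the minor arm of the hairpin of miR-21, fell by 1.34 at 13.8 ± 0.68 CPM in co-cultured libraries and 35.2 ± 6.03 CPM in control libraries (SE 0.27, adjusted p = 0.00658 in edgeR's test, n = 3 each). Without control library 2 its adjusted p was 0.0648. miR-21a-5p, the major arm of that hairpin, had a log2 fold change of 0.19 (SE 0.07, adjusted p = 0.104) and did not pass. Of its tags and those of its 3′-extended entry, 94.69% to 94.98% in co-cultured libraries and 95.4% to 96.0% in control libraries were of the extended entry, which did not pass either (-0.08, SE 0.06, adjusted p = 0.368). Of the 19 tested, 14 had a log2 fold change above 0, and the summed level of the list was 39206 to 41685 CPM in co-cultured libraries and 29215 to 33377 CPM in control libraries. That sum is carried by miR-27b-3p and miR-21a-5p. It leaves out the extended entry of miR-21a-5p, which held most tags of that miRNA, so it is not a total for the listed miRNAs.

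Of 14 miRNAs listed as enriched in neurons, with miR-128 left out, 8 had a row and 5 could be tested. Of these, 1 fell and none rose, beside 7.56% called lower and 3.87% called higher over all miRNAs tested, and the median log2 fold change was -0.70 against 0.08 over all miRNAs tested. miR-129-5p fell by 0.72 on the log2 scale, at 115 ± 22.3 CPM in co-cultured libraries and 189 ± 11.03 CPM in control libraries (SE 0.15, adjusted p = 0.00871 in edgeR's test, n = 3 each). The other tested members were miR-9-5p at 6.54 and 11.97 CPM in co-cultured and control libraries, miR-132-3p at 5.21 and 8.49 CPM, miR-218-5p at 7.24 and 8.85 CPM, and miR-7a-5p at 573 and 561 CPM, and none of these passed under its miRBase sequence. Most miR-7a-5p tags were in its 3′-extended entry, 89.2% to 89.3% in co-cultured libraries and 90.9% to 91.1% in control libraries. That entry fell by 0.25 on the log2 scale (SE 0.07, adjusted p = 0.0357 in edgeR's test), with adjusted p from 1.72e-04 to 0.609 over the other settings. miR-128-3p, higher with co-culture, was on the other side of 0 from the median of this list. That median is the value of miR-132-3p alone (SE 0.60), so nothing is read from this contrast.

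Of 18 miRNAs tied to TGF-β signalling or renal fibrosis, 13 had a row and 11 could be tested, of which 3 rose and 2 fell with co-culture, beside 3.87% called higher and 7.56% called lower over all miRNAs tested. The median log2 fold change was 0.19 against 0.08 over all miRNAs tested. miR-155-5p and miR-27b-3p, which stand in the hypoxia list too, and miR-30a-5p rose, the last by 0.62 (SE 0.09, adjusted p = 0.00107 in edgeR's test). miR-29b-3p, which targets collagen transcripts, fell by 1.04 on the log2 scale, at 38.1 ± 9.98 CPM in co-cultured libraries and 78.5 ± 3.25 CPM in control libraries (SE 0.21, adjusted p = 0.00723 in edgeR's test, n = 3 each). The more abundant miR-29a-3p of the same list averaged 523 CPM in co-cultured libraries and 497 CPM in control libraries. It did not pass (0.07, SE 0.10, adjusted p = 0.624 in edgeR's test). miR-192-5p, enriched in kidney, fell by 0.57, at 295 ± 11.9 CPM in co-cultured libraries and 437 ± 44.7 CPM in control libraries (SE 0.10, adjusted p = 0.00422 in edgeR's test, n = 3 each). That call was lost under total-count scaling and in limma on log2(CPM + 1), with a highest adjusted p of 0.105 over the settings tried.

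Markers of other cells were read beside these values. Of 12 epithelial miRNAs 10 had a row, with summed levels of 12764 to 13831 CPM in co-cultured libraries and 11264 to 11983 CPM in control libraries, carried by miR-10a-5p and miR-30a-5p. Of the 5 epithelial miRNAs tested, 2 had a log2 fold change above 0, and the median was -0.14. Called higher was 1 (miR-30a-5p) and lower 1 (miR-192-5p), beside 3.87% higher and 7.56% lower over all miRNAs tested. The epithelial miRNA miR-200a-3p was listed in no library, and miR-200b-3p averaged 2.14 CPM in co-cultured libraries and 7.33 CPM in control libraries. The other arm of the first, miR-200a-5p, had a mean count of 135, so the empty 3p row does not show a silent hairpin. That arm did not pass (log2 fold change 0.35, SE 0.37, adjusted p = 0.494 in edgeR's test). Of 11 mesenchymal miRNAs 9 had a row, with overlapping sums of 5712 to 6295 CPM in co-cultured libraries and 6048 to 7220 CPM in control libraries. Those sums are carried by miR-10b-5p, at means of 5703 CPM in co-cultured libraries and 6033 CPM in control libraries. Of these, miR-199b-5p and miR-379-5p were listed in no library. Of the 7 tested, 5 had a log2 fold change above 0 and the median was 1.39, against 0.08 over all miRNAs tested, while none was called higher. The 5 were miR-199a-3p, miR-199a-5p, miR-145a-5p, miR-127-3p and miR-381-3p, at means of 12.51 CPM or less in either group. The abundant miR-143-3p fell by 0.92 on the log2 scale (SE 0.09, adjusted p = 5.2e-05 in edgeR's test). Blood miRNAs summed to 1.59 CPM or less in co-cultured libraries and 1.02 CPM or less in control libraries. Endothelial miR-126a-3p and miR-126a-5p summed to 48.1 to 52.2 CPM in co-cultured libraries and 62.2 to 65.4 CPM in control libraries, and neither passed the test. Whether these levels have a part in those of the Mir210 and Mir128 arms was not tested, and a change in the number of cells of a type cannot be told apart from a change per cell.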

How the data were processed

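miRNA was sequenced in 6 libraries of mRTECs, 3 per group. Bowtie 0.12.2 and the builds mm 8 and mm 9 appear in the submitters' processing notes, without a role. The annotation and the normalization method were not given in the sources used here. Tables deposited by the authors are a raw table of tag counts and 3 tables of normalized values, treated as a score because they are the raw counts times 1 factor per library, rounded to whole numbers. Their columns of folds and p-values were not used. All per-sample columns were assigned to a sample.

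Entries of the same sequence were merged. Counts were fitted in edgeR 4.0.16 (R 4.3.3) with TMM, a mean count of at least 5, quasi-likelihood F-tests without covariates and Benjamini-Hochberg adjustment over all 542 miRNAs tested. Each SE of an edgeR value is its absolute log2 fold change divided by the square root of F. Counts rather than the rounded tables were used because they keep depth. Fits were tested on simulated counts with 200 changed miRNAs. Arms were compared as log2((3p + 1)/(5p + 1)), with exact intervals in scipy 1.17.1. The planned sign-flip test of the arms is not given, because the members were selected on the same counts. Coordinates refer to GRCm38, which is none of the builds the notes name.

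The 4 members and all lists were chosen with earlier results of these data known. Named miRNAs are the members, those of the same hairpins or seed, the 5 nearest in pattern to each of miR-210-3p and miR-128-3p, and list members past the threshold or, failing these, the most abundant. miR-21a-5p, the tested neuron-list miRNAs, the markers, miR-200a-5p, miR-27a-3p, miR-29a-3p and miR-146a-5p were named outside this rule. Alternatives were DESeq2 1.42.0, limma 3.58.1 on log2(CPM + 1) and on the authors' normalized values, other scalings and filters, the replicate block and leaving out each library. Total-count scaling for the number of calls, the restrictions on rows tested and all alternatives for the difference in arm ratio and the extended form were added after seeing the data.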

Additional observations from a re-analysis of the deposited data

How the results depend on the processing

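Against 62 miRNAs called, leaving out single libraries gave 37 to 249 calls. They were 157 without co-cultured replicate 2, 193 without co-cultured replicate 3, 249 without control replicate 1 and 37 without control replicate 2. DESeq2 called 93, 39 higher and 54 lower in co-cultured libraries, limma on log2(CPM + 1) called 84, 49 higher and 35 lower, and limma on the authors' normalized values called 69, 36 higher and 33 lower. With the replicate block the count was 66, and the log2 fold changes were -2.27 for miR-210-3p, -3.80 for miR-210-5p, 1.08 for miR-128-3p and -3.43 for miR-128-1-5p. Deviations of same-numbered libraries correlated at 0.03, -0.01 and 0.14, so the numbers were not taken to pair samples. Size-factor and total-count scaling, the replicate block, the authors' normalized values and leaving out single libraries kept the sign of the 4 members. Leaving out single libraries gave -2.44 to -2.04 for miR-210-3p, -4.10 to -2.79 for miR-210-5p, 0.99 to 1.21 for miR-128-3p and -3.47 to -2.48 for miR-128-1-5p. The authors' normalized values of both 5p arms are 1 or a blank in co-cultured libraries and 3 to 7 in control libraries. These values gave -1.97 for miR-210-5p, -1.53 for miR-128-1-5p and 2.70 for the difference in arm ratio of Mir128-1. The same difference for Mir210 was 0.10 with those values, 0.50 with a pseudocount of 5 and 2.57 with 0.1. The 3p share of Mir210 without single libraries was 81.4% to 94.0% in co-cultured and 74.2% to 81.2% in control libraries. Arm dominance over 5 libraries was 1.84 to 2.73 for Mir210 and 5.60 to 6.86 for Mir128-1, with the 3p arm ahead in each. The hypoxia list had 7 calls in place of 4 with DESeq2 size factors and 7 without the filter on low counts. Over all miRNAs, 68 of 542 were called with those size factors and 78 of 1005 without the filter. The extended form did not pass in any fit that kept it, with an adjusted p of 0.298 to 0.907. The causes of these shifts were not tested. Depth limits the 5p arms and the extended form most, at 5 to 41 tags per listed library.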
